A study of Mus musculus with 18 samples.

Results

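The isolated transcribed distal DHSs were sites of open chromatin, away from gene starts, that gave a low to middling amount of nascent RNA in mouse embryonic stem (ES) cells while the sites numbered just before and just after them gave less than the lower limit or were not listed. A DHS is a DNaseI hypersensitive site, a stretch of DNA that the nuclease DNaseI cuts easily because it is not wrapped tightly in nucleosomes. The isolated DHSs were chosen by their level in the deposited table of DHS-associated non-coding RNA. A member had a baseMean from 1 to below 100, and neither the DHS number before it nor the number after it was listed with a baseMean of 1 or more. The rule gave 5331 members among 70586 listed DHSs (7.55%). A further 20182 DHSs (28.6%) lay in the same baseMean range but had a transcribed adjacent number, and 1305 (1.85%) had a baseMean of 100 or more. In what follows, a transcribed DHS is one with a baseMean of at least 1, which held for 26818 listed DHSs (38.0%). This cut is stricter than the presence of reads, since only 12632 listed DHSs were at 0. The paper counted more of the DHSs as sites of nascent transcription.

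Gene-distal DHSs in ES cells include enhancers, the elements that pluripotency factors such as OCT4, SOX2 and NANOG bind to raise the activity of genes at a distance. RNA polymerase II initiates at many active enhancers and makes short, unstable enhancer RNAs, which are hard to see in steady-state RNA and are captured better by labelling RNA as it is made. FACT, the histone chaperone of SPT16 and SSRP1, takes off and puts back histone H2A-H2B dimers as polymerases pass, and the series depleted its SPT16 subunit. Not every DHS is an enhancer. Distal DHSs also mark insulators bound by CTCF and silent open sites, and a distal DHS inside a gene body lies under the nascent transcript of that gene.

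The RNA came from E14 mouse ES cells, a feeder-independent line, carrying the plant F-box protein osTIR1, which all groups shared. In 2 clones the endogenous Supt16 gene bore a C-terminal mini-AID and V5 tag, so that the auxin 3-IAA led SPT16 to be degraded, and untagged cells were the control line. The untagged cells and both SPT16-AID clones, 1 and 2, received either ethanol (EtOH, 0.1%) or 3-IAA for 24 h, which gave 6 groups of 3 libraries and 18 libraries in all, with 5 min of 4sU labelling (TT-seq). The labels gave 500 nM 3-IAA and 500 mM 4sU, whereas the methods gave both doses in µM. Each tagged group came from 1 clone, and the 2 clones were all that stood for tagged cells.

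The level of a DHS was its baseMean, the authors' mean over libraries of reads divided by a size factor for each library. It pooled ethanol and 3-IAA libraries of tagged and untagged cells, so it carried no spread, no replicates and no comparison between groups. Whether the members rose or fell with SPT16 depletion is therefore not reported here, and no value below has a test. The 18 most frequent values above 0, none of them a sum of others, were taken as what 1 read in 1 library added to a baseMean. They ran from 0.0257 to 0.0972, a ratio of 3.78 between the libraries that added most and least. A baseMean of 1 stood for 19.7 reads over the 18 libraries where all had the same level, and for 11 to 38 reads in the extremes where a single library supplied them all. Counting error of the summed reads at equal levels was then 22.5% at a baseMean of 1, 15.9% at 2, 7.12% at 10 and 2.25% at 100. For baseMean itself these are lower bounds, since it gives each library the same weight whatever its reads. These errors leave out the spread between cultures, which cannot be had from a pooled mean.

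Isolated DHSs had mostly low levels of nascent RNA. Their median baseMean was 2.34, with quartiles of 1.40 and 5.77, against 5.34 (2.35 to 14.6) for DHSs of the same range with a transcribed adjacent number. A baseMean below 2 was found for 2308 members (43.3%), compared with 20.2% of the DHSs with a transcribed adjacent number. A baseMean below 10 was found for 4486 members (84.1%), compared with 66.7%, and 135 members reached 50 or more. The members together held 5.40% of the summed baseMean of all listed DHSs, while the 1305 DHSs of 100 or more held 56.3%. Within the members the sum was also uneven, since the 533 highest members held 56.3% of it. Since both the range and the neighbours were set by baseMean, these levels describe the choice and are not a finding about it.

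The share of DHSs that were isolated fell as the level rose. Of DHSs with a baseMean from 1 to below 2, 36.1% were isolated, and of those from 2 to below 5, 21.6%. The share was 14.4% from 5 to below 10, 11.5% from 10 to below 20, 11.3% from 20 to below 50 and 10.0% from 50 to below 100. Above a baseMean of 10 the share was thus nearly level over all DHSs, but not over those whose neighbours had both been measured. Among DHSs with both adjacent numbers listed, the share that were isolated fell in every step, from 29.8% in the lowest bin through 16.0%, 9.31%, 5.10% and 3.82% to 1.37% in the highest, where 10 DHSs met the rule.

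**Figure D1:**
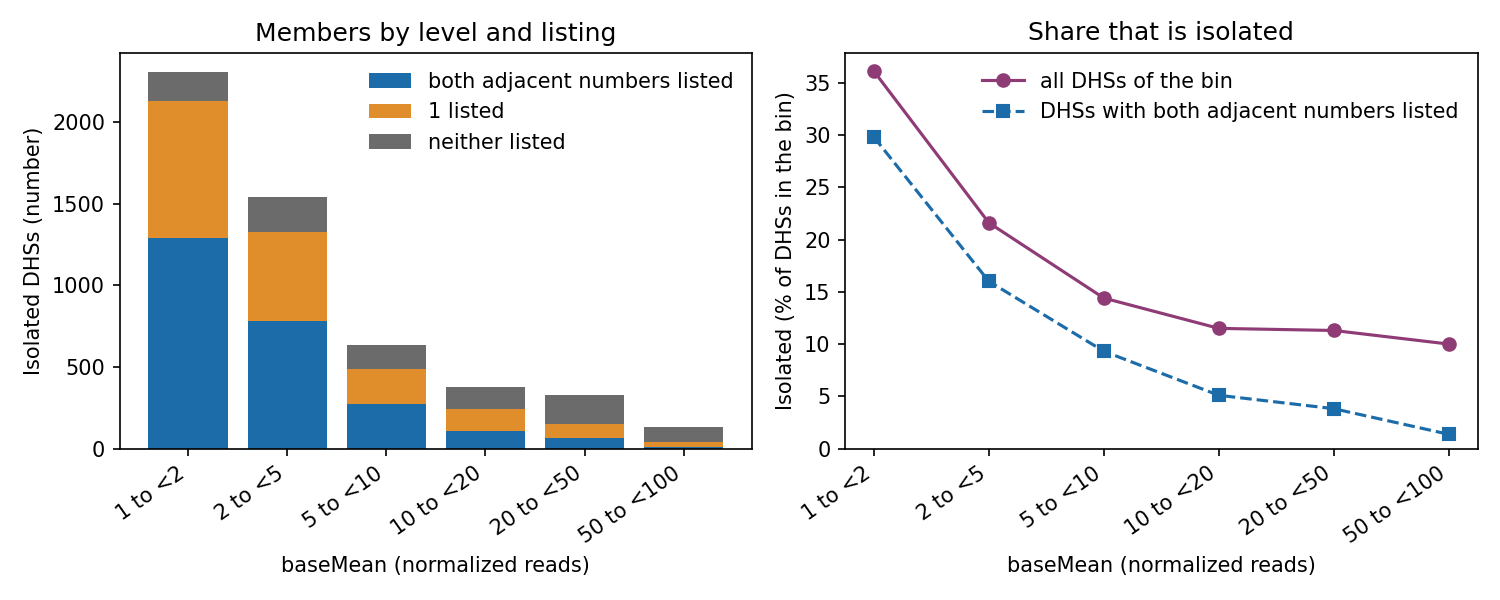
Left, number of isolated DHSs in 6 bins of baseMean (normalized reads), stacked by how many adjacent numbers were listed. Right, isolated DHSs as a percentage of all DHSs of the bin (circles) and of those with both adjacent numbers listed (squares), which fell from 29.8% to 1.37%; the left-hand grey part, with neither neighbour listed, made up 95 of the 135 members in the top bin.

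The word isolated covered unlike situations. The DHS numbers ran from 1 to 199717, and 35.3% of them were listed. An adjacent number that was not listed passed the rule in the same way as one that was measured and low. Both adjacent numbers were listed for 2527 members (47.4%), 1 was listed for 1853 (34.8%), and neither was listed for 951 (17.8%). Only for the first of these classes did the data show low transcription on both sides. For the members of the other classes the name rests in part on numbers with no value here. They are better read as DHSs with no adjacent number listed as transcribed. Of the 951 with neither adjacent number listed, 762 had a transcribed DHS as the nearest listed one on at least 1 side.

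The most highly transcribed isolated DHSs were largely those without a listed neighbour. Members with neither adjacent number listed had a median baseMean of 7.18 (quartiles 2.44 and 24.3), and 43.1% of them reached 10. Members with 1 adjacent number listed had a median of 2.23 (1.38 to 5.15) and 13.6% reached 10. Members with both listed had a median of 1.96 (1.31 to 3.75) and 7.24% reached 10. Every DHS of the range with no listed neighbour was a member by construction, whereas 23.5% of those with 1 and 15.1% of those with both were members. The same order held over all listed DHSs, with no choice on level. Their median baseMean was 1.75 with neither neighbour listed, 0.618 with 1 and 0.352 with both, and 57.9%, 43.3% and 35.2% of them were transcribed.

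**Figure D2:**
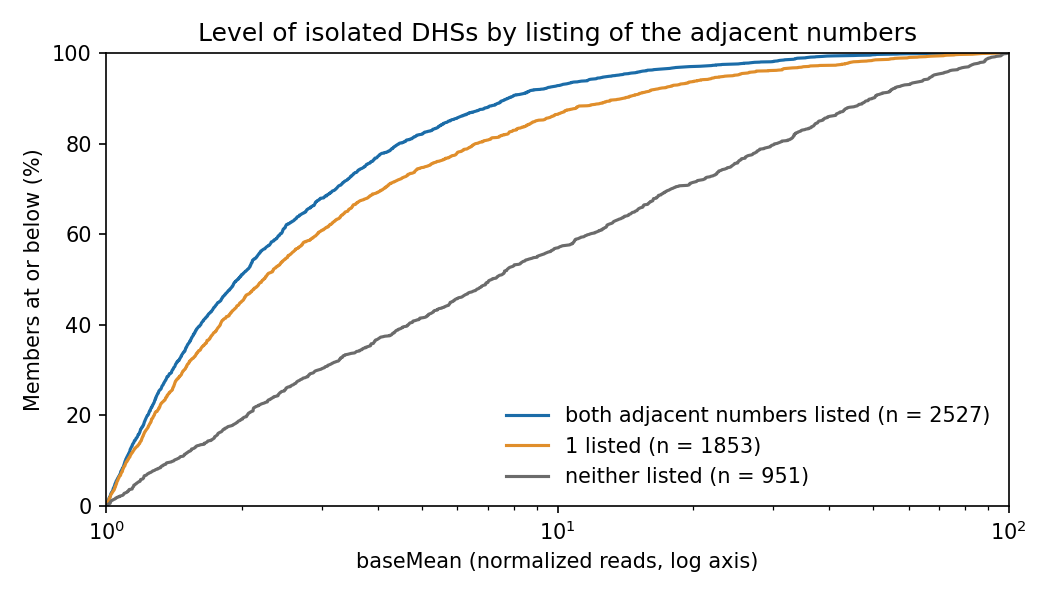
Cumulative percentage of isolated DHSs at or below each baseMean (log axis, normalized reads), by how many adjacent numbers were listed. The curve for the 951 members with neither listed lies to the right of the others, with a median of 7.18 against 2.23 and 1.96.

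The 5 members with the highest baseMean show this. DHS115699 had 99.7, DHS131360 had 99.1, DHS169652 had 97.1 and DHS170989 had 96.7, and none of them had a listed adjacent number. The nearest listed DHSs around them were themselves transcribed in 7 of 8 cases. DHS115699 had 35.8 at 3 numbers before it, preceded by 68.5 and 57.6, and 0.840 at 6 numbers after it. DHS169652 had 5.22 at 13 numbers before and 41.6 at 8 numbers after, and DHS170989 had 16.2 and 12.5 at 6 numbers on either side. DHS131360 had 3.73 at 3 numbers before and 1.78 at 21 numbers after. DHS192711, at 97.6, was the exception, with 0.315 just after it and 0.315 as the nearest listed value before it, at 9 numbers. It stood 310 times above its only measured neighbour.

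High members in other stretches of the numbering had the same kind of surroundings. The highest member of each block of 20000 numbers had no listed adjacent number in the blocks led by DHS8915 (89.9), DHS24710 (96.0), DHS57734 (96.6), DHS69615 (78.8), DHS83394 (91.1) and DHS153789 (79.8). DHS69615 lay between listed DHSs of 157 and 21.0, the second of them 2 numbers away. DHS153789, by contrast, had 0.123 and 0.894 as its nearest listed values. The nearest listed DHS was a transcribed one on both sides for 353 of the 951 members with neither neighbour listed, and on neither side for 189 (19.9%). It was transcribed on the side before for 581 (61.1%) and after for 534 (56.2%). For these members the nearest listed DHS before lay a median of 8 numbers away (quartiles 4 and 17). Among the 1853 members with 1 adjacent number listed, whose listed side the rule fixed, the nearest listed DHS on the other side was transcribed for 897.

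For members with both adjacent numbers measured, the distance to their neighbours in level could be described. The rule set the member at 1 or more and its neighbours below 1, so every ratio was above 1 by construction. The higher of the adjacent values had a median of 0.447 (quartiles 0.203 and 0.724). The member exceeded it by a median of 5.46 times (2.63 to 13.8) in the 2423 pairs where it was above 0. In 777 of these (32.1%) the member was at least 10 times higher, and in 63 (2.60%) at least 100 times. In 374 (15.4%) it was less than 2 times higher. For 1142 members (45.2%) an adjacent value reached 0.5, and 593 of these had a baseMean below 2 themselves.

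The 5 highest of them stood 62.9 to 303 times above their higher neighbour. DHS141873 had a baseMean of 78.1 between 0.905 and 0.698, and DHS149118 had 76.8 between 0.987 and 0.326. DHS177008 had 59.9 between 0.951 and 0.219. In these 3 an adjacent value was just under the limit. DHS187517 had 75.3 between 0.0345 and 0.249, and DHS126079 had 73.3 between 0.127 and 0.338, ratios of 303 and 217. Around DHS126079 the 4 numbers before lay between 0.127 and 0.284, and values of 3.63 and 3.38 followed 3 and 4 numbers after it. DHS187517 had 15.2 at 4 numbers before and 5.21 at 3 numbers after, so that its quiet surroundings were short. At equal levels in all libraries these 5 levels would stand for 1182 to 1543 reads each, whereas their higher neighbours would stand for 4.91 to 19.5 reads, with a counting error of 22.6% to 45.1%. It was 45.1% for the neighbour of DHS187517 and 38.7% for that of DHS126079, so the highest ratios among these 5 were also the least precise.

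**Figure D3:**
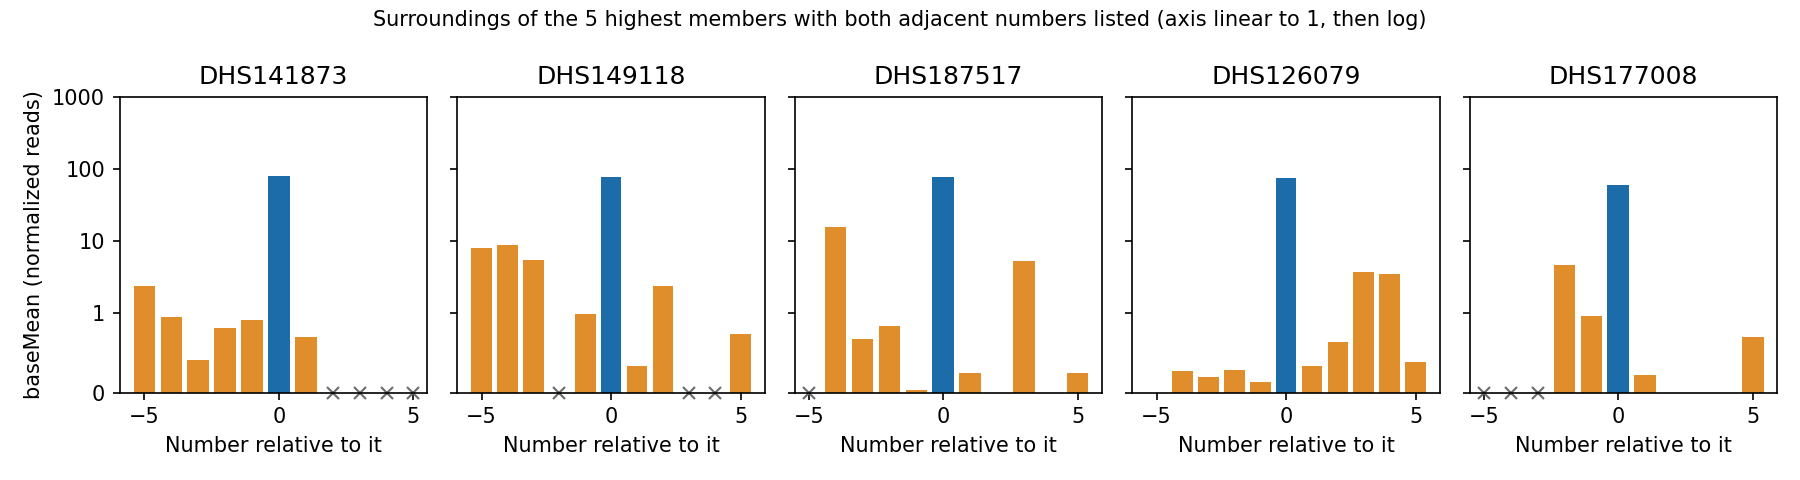
BaseMean (normalized reads, axis linear to 1 and logarithmic above) of the 5 highest isolated DHSs with both adjacent numbers listed (blue, at 0) and of the 5 numbers on either side (orange); crosses mark numbers that were not listed, and a place with neither bar nor cross was listed at 0. The members stood at 59.9 to 78.1 while their adjacent values stayed below 1, and 4 of the 5 had another transcribed DHS within 4 numbers.

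At least 1 adjacent number was listed at 0 for 688 of these 2527 members (27.2%), and both were for 104 (4.12%). Of all their adjacent values, which the rule held below 1, 15.7% were 0. The share over all listed DHSs was 17.9%, which is not a like reference, since it includes transcribed DHSs. Under the same limit of 1, 12632 of 43768 DHSs were at 0, a higher share than among the adjacent values. The 104 members had a median baseMean of 2.33, against 1.93 for those with an adjacent value of 0.5 or more. The highest of the 104 was DHS172041 at 38.1, followed by DHS109051 at 35.5, DHS149599 at 33.7, DHS90864 at 31.5 and DHS32239 at 26.9. DHS90864 lay in the longest unbroken stretch of listed numbers, 84 DHSs, and the 5 numbers on either side of it had 0 to 0.676. DHS109051 had no value above 0.272 within 5 numbers, and DHS32239 had reads at 1 of its 9 listed neighbours, with 0.122. DHS149599 differed from these, with 16.2 at 4 numbers before it.

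Beyond the adjacent numbers, which the rule fixed, isolated DHSs had fewer transcribed DHSs at 2 and 3 numbers than the table at large. Further out all members together had about as many. Of the DHSs listed 2 numbers from a member, 28.9% were transcribed, against 71.9% for DHSs of the same range with a transcribed neighbour, 89.6% for DHSs of 100 or more and 35.6% for all listed DHSs. At 3 numbers the share around members was 28.7%, at 5 numbers 32.1% and at 10 numbers 36.3%. Over all listed DHSs it was 34.8% at 3 numbers, 34.1% at 5 and 33.6% at 10. Over all members together the lower share was thus limited to the first few numbers. The DHSs with a transcribed neighbour still had 57.0% at 5 numbers and 48.0% at 10, and those of 100 or more had 75.1% and 62.2%. Members with both adjacent numbers listed had lower shares throughout, 25.0% at 2 numbers, 27.1% at 5 and 32.0% at 10. Their share stayed below that of all listed DHSs at every distance looked at, with 34.7% against 35.9% at 50 numbers. All listed DHSs are not a like reference for them, since the share transcribed differed with the listing of adjacent numbers. Over all listed DHSs it was 57.9% with neither listed and 35.2% with both. Levels of nearby numbers were alike over the whole table, with Spearman's rho of 0.681 over 59077 pairs of adjacent numbers, 0.373 at 5 numbers and 0.0769 at 50. These pairs shared libraries and size factors, and rho is given as a description across DHSs. The file notes call the numbers arbitrary, so a distance in numbers is not a distance on a chromosome.

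**Figure D4:**
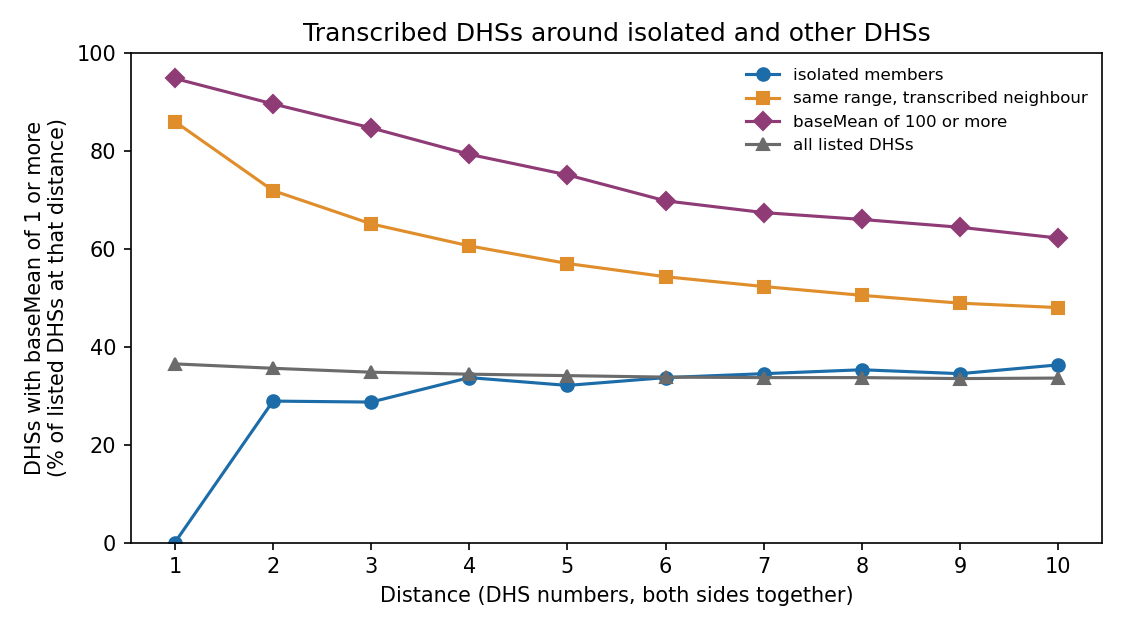
Percentage of listed DHSs with a baseMean of 1 or more at each distance in DHS numbers (both sides together) from isolated DHSs, from DHSs of the same range with a transcribed adjacent number, from DHSs of 100 or more and from all listed DHSs. The value of 0 at a distance of 1 for isolated DHSs is set by the rule; from a distance of 2 to 10 they had 28.7% to 36.3%, while over the same distances the DHSs with a transcribed neighbour fell from 71.9% to 48.0%.

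How far the quiet reached depended on how numbers that were not listed were treated. With such numbers passed over, no DHS of 1 or more was listed within 2 numbers of 3674 members (68.9%), within 3 of 3008 (56.4%), within 5 of 2136 (40.1%) and within 10 of 1130 (21.2%). All numbers on both sides were listed and below 1 over a reach of 2 numbers for 1085 members (20.4%), of 3 for 619 (11.6%), of 5 for 210 (3.94%) and of 10 for 29 (0.544%). In these members the medians were 1.96 at a reach of 1, 2.03 at 2, 1.93 at 3, 2.03 at 5 and 2.31 at 10, although the highest value fell from 78.1 to 18.5 as fewer members remained. A member was the only transcribed DHS of an unbroken stretch of at least 2 listed numbers in 1474 stretches, with a median length of 4. The longest of these, 34 DHSs, held DHS118369 at 3.24. DHS199706, at 9.94, and DHS156991, at 2.11, were each alone in 33, DHS166043, at 1.08, in 31 and DHS180483, at 18.5, in 29. DHS166043 would rest on 21.2 reads at equal levels, and DHS180483 on 365.

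On the scale of blocks of 20000 numbers, isolated DHSs were spread about evenly over the numbering. Each of 10 blocks of up to 20000 numbers held 494 to 585 members, which made up 7.27% to 7.97% of its listed DHSs and 18.8% to 23.2% of its DHSs in the range, with medians from 2.13 to 2.54. The listed numbers formed 11509 unbroken stretches, of which 4069 held a member, 3199 of them a single one, and no stretch held more than 8. The evenness was seen at the scale of blocks only. On a finer scale, 494 pairs of members lay 2 numbers apart, against 208 at 3. The rule sets fewer conditions on pairs 2 numbers apart, and its part in this was not tested.

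The limits of the rule cut through a continuous range of levels. The members just inside the lower limit were DHS171912, DHS38189 and DHS47586, at 1.00001, 1.000222 and 1.000382. DHSs that met the rule on neighbours and lay just outside it were DHS194268, DHS199494 and DHS34029, at 0.9996483, 0.9996361 and 0.9996082, a fraction of what 1 read adds. At the upper limit DHS115699, DHS131360 and DHS192711, with 99.7, 99.1 and 97.6, were the last inside. DHS120278, DHS181604 and DHS13412 met the rule on neighbours and lay just outside with 100.2, 100.3 and 102.0.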

How the data were processed

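TT-seq measures RNA labelled with 4sU shortly before harvest. Per the methods, reads were trimmed with Trim Galore, aligned to mm10 with STAR keeping unique alignments, and counted by strand with featureCounts over TSS-distal DHSs, with sites near starts of coding genes removed and no filter on expression. The submitters' processing notes name STAR, HTSeq, deepTools and DESeq2, so the counter differs between these sources. For each DHS the authors deposited baseMean, a normalized signal (mean over libraries of reads divided by DESeq2 size factors). Of 4 deposited tables, that of DHSs was described here, and that of putative enhancers was read only to see whether its values shared single-read steps. The tables also hold the log2 fold change, its standard error, p-value and adjusted p-value of the authors' own comparison; these were not used. Totals per library were not used here, and size factors recovered from the 18 single-read steps ranged from 0.572 to 2.16, without a link to named libraries.

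Members and lists were chosen with earlier results of these data known. Adjacency was taken from DHS numbers. Counting error was that of summed reads at equal levels, taken from the recovered steps, and covers neither PCR duplicates nor spread between cultures. DHS positions were not used here, so no sequence or annotation is given. Reads of a host gene on the counted strand would add to a DHS, and their part was not tested.

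Named DHSs were the 5 highest of all members, of those with both adjacent numbers listed and of those with both at 0, the 5 in the longest stretches with no other transcribed DHS, the highest of each block of 20000 numbers, and the 3 on either side of each limit. Ratios to neighbours, nearest listed DHSs, even and odd numbers and distances between members were added after the values were seen. Tables were handled with pandas 2.3.3 and numpy 2.4.6 in Python 3.11.15, correlations computed with scipy 1.17.1 and plots drawn with matplotlib 3.10.9, and the rule and the search for steps were tested on simulated data. Alternatives changed the limits on level, the limit on neighbours and the numbers looked at.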

Additional observations from a re-analysis of the deposited data

How the results depend on the processing

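How many DHSs were isolated depended on the lower limit, the limit on neighbours and the numbers looked at, and little on the upper limit. The values below are the number of members, their median baseMean, their share of the baseMean range and the share with both adjacent numbers listed. The main values were 5331, 2.34, 20.9% and 47.4%. A lower limit of 0.5 gave 8929 members, 1.23, 27.6% and 52.6%, a lower limit of 2 gave 3023, 4.85, 15.8% and 41.0%, and one of 10 gave 845, 22.4, 11.2% and 21.7%. Neighbours below 0.5 gave 3495, 2.62, 13.7% and 39.6%, neighbours below 2 gave 8267, 2.21, 32.4% and 52.8%, and neighbours at 0 or not listed gave 1228, 5.25, 4.81% and 8.47%. Looking 2 numbers to each side gave 3674, 2.42, 14.4% and 42.5%, and looking 5 to each side gave 2136, 2.49, 8.37% and 38.2%. Requiring both adjacent numbers to be listed gave 2527, 1.96, 9.90% and 100%, the last by construction. The 9.90% is of all DHSs in the range, and of those with both adjacent numbers listed the share was 15.1%. An upper limit of 50 moved the share of the range to 21.5%, with 5196, 2.26 and 48.4% for the others, and no upper limit gave 5474, 2.42, 20.4% and 46.3%.

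No paired analysis was possible because baseMean pools all 18 libraries, and for the same reason no replicate could be left out. Matching DHSs to putative enhancers by equal values was not run. The reason was that 0 of the 18 single-read values found for DHSs were among the 14 found for putative enhancers.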

Other observations

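Successive members were a median of 22 numbers apart, and the most frequent distance among the short ones was the smallest the rule allows. There were 494 pairs of members 2 numbers apart, against 208 at 3, 220 at 4 and 140 at 5. Members 2 numbers apart share the number between them, so the rule sets fewer conditions on such pairs than on pairs further apart. How much of the higher count this gave was not tested. In 431 of the 494 pairs the DHS between them was listed, with a median baseMean of 0.459 and 23 at 0, so that 2 transcribed DHSs flanked 1 measured below the limit.

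Around members the share of transcribed DHSs was higher at 4 numbers (33.7%) than at 3 (28.7%) and 5 (32.1%). Members with both adjacent numbers listed, a part of the same set, had 29.1% against 23.7% and 27.1%. Even numbers held 2750 members, 21.5% of the 12809 DHSs in the baseMean range with an even number, and odd numbers held 2581, 20.3% of 12704.

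Among members with 1 adjacent number listed, 1042 were the first of a stretch of listed numbers and 811 the last, while the DHSs in the baseMean range at these places numbered 3973 and 3907.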
